A study of Mus musculus with 15 samples.

Results

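Collagens are the triple-helical proteins of the extracellular matrix, and the collagen family was taken as every gene whose name is Col, a number, the letter a and a number. The rule found 44 of the 33058 named genes in the deposited transcript table, with 209 of its 129029 transcripts, and 21 of the 11929 deposited circular RNAs (circRNAs) carried one of these genes as host. Kidney RNA came from 15 male C57BL/6 mice (C57BL/6J in the methods of the study) housed at 25 °C on standard chow, 5 each at 3, 12 and 24 months of age, with 1 library per mouse and no genetic or drug treatment in any group. The methods of the study describe young and old mice and do not describe the 12-month-old mice, so their source is not given in the sources used here. The labels describe removal of ribosomal RNA and the methods describe oligo(dT) selection, and which of them made the libraries was not settled. Mice are named here by age and by the number in their label (5 to 9, 17 to 21 and 31 to 35). A gene value is the sum of FPKM (fragments scaled to transcript length and to the mapped fragments of the library) over its annotated transcripts and its assembled isoforms of class codes =, c, j and o.

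Each collagen molecule is built from 3 chains, and the genes code for the chains. Fibrillar chains (types I, II, III, V, XI, XXIV and XXVII) form the interstitial fibres that thicken in scarred kidneys, whereas type IV chains form the sheet-like network of basement membranes. In the mature glomerular basement membrane the network is made of the alpha3, alpha4 and alpha5 chains of type IV, whose loss causes Alport disease, and the alpha1 and alpha2 chains lie under tubules, vessels and mesangium. The remaining types link fibrils (FACIT collagens), form beaded filaments around cells (type VI), border basement membranes (types XV and XVIII), build hexagonal nets (types VIII and X), anchor epithelia (type VII) or span the cell membrane.

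What the members share beyond the name was read from the coding sequences of GENCODE M21 (GRCm38). The triple helix needs a glycine once in every 3 residues, and glycine codons all read GGN, so the longest in-frame run of triplets of codons that open with GGN was counted in the longest coding transcript of each gene. All 44 genes held a run of at least 20 triplets, as did 64 of 21814 coding genes (0.293%), so that 20 genes outside the family also held one. The runs set fibrillar and type IV chains apart. In 9 fibrillar genes the longest run had between 337 and 344 triplets, in Col24a1 and Col27a1 it had 216 and 217, and in the 6 type IV genes it had between 39 and 66 with interruptions between runs. The stretches below are shown for the first chains of types I and III, for Col27a1 and for Col4a3 across one of its interruptions. Capitals mark GGN codons that stand 3 codons apart in a run of at least 3.
Col1a1, codons 168 to 197, exons 6 to 8, chr11:94939451-94939939, plus strand: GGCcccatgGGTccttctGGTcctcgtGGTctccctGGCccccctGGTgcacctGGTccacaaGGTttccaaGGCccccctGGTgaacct
Col3a1, codons 164 to 193, exons 5 to 6, chr1:45323762-45325413, plus strand: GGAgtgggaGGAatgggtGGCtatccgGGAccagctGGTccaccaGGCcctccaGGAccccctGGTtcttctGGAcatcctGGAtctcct
Col27a1, codons 673 to 702, exons 6 to 8, chr4:63244040-63253670, plus strand: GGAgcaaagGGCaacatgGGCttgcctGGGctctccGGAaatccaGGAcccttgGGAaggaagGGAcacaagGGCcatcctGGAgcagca
Col4a3, codons 145 to 174, exons 7 to 9, chr1:82651299-82653354, plus strand: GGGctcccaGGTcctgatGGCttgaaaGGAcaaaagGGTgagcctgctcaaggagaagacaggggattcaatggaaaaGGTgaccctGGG
In the first 3 stretches all 10 triplets open with GGN. In Col4a3 only 7 such codons are capitalised, because the repeat stops after 5 triplets and returns in the last 2.

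The libraries held between 5.03 and 8.03 Gb (gigabases) of aligned sequence, and the 3-month-old libraries were the shallowest (5.03 to 6.13 Gb, against 5.84 to 8.03 Gb at 12 and 6.07 to 7.33 Gb at 24 months). Marker lists of cell types showed kidney in every library, with a summed FPKM of 8 tubule genes between 6775 and 12292. Of the 5 adrenal cortex markers, Cyp11b1, Cyp11b2 and Cyp21a1 stayed under 0.1 FPKM in every mouse, whereas Star had means of 1.4, 1.96 and 2.45 FPKM and Mc2r of 0.0675, 0.265 and 0.418 at 3, 12 and 24 months. The summed level of 8 fibroblast, pericyte and smooth muscle markers ran from 36.0 to 50.2 at 3 months, from 49.8 to 59.8 at 12 months and from 50.4 to 66.8 at 24 months. The 7 lymphocyte markers had summed medians of 28.4, 245 and 117, of which the immunoglobulin gene Igkc alone made between 90.8% and 95.8% of the mean, and the 6 macrophage markers medians of 29.0, 57.5 and 39.3. Podocyte markers, whose cells make the alpha3 to alpha5 chains of type IV, had medians of 59.1, 70.9 and 63.9 over 6 genes. Which cells of the whole kidney the RNA of these chains came from was not tested. In whole kidney, fewer cells of a type and less RNA per cell cannot be told apart.

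Together the 44 genes summed to a median of 215 FPKM at 3 months (190 to 241), 239 at 12 months (214 to 251) and 202 at 24 months (173 to 222), which is between 0.0792% and 0.105% of all FPKM in a mouse. Basement membrane chains led. Col4a4 and Col4a3, the alpha4 and alpha3 chains, had the highest means over 15 mice (41.2 and 38.7 FPKM) and made up 37.2% of the family sum. They were followed by Col18a1 (19.8), the source of endostatin, and by Col4a1 (18.9), and then by the fibrillar chains Col27a1 (11.3) and Col1a2 (11.1). Col3a1 and Col1a1, the chains most used to follow fibrosis, had means of 7.82 and 4.02 FPKM. In all, 6 genes had a mean of at least 10 FPKM, 15 lay between 1 and 10, 14 between 0.1 and 1, and 9 under 0.1. The 9 lowest were Col8a2, Col11a2, Col9a3, Col28a1, Col11a1, Col2a1, Col9a2, Col22a1 and Col9a1, several of them cartilage collagens, and the last 6 of these were listed at 0 in at least 1 mouse. Among the 21 genes at a mean of at least 1, neighbours in the order often did not differ beyond their spread. Col4a4 and Col4a3, for instance, had 35.4 to 51.2 and 38.0 to 49.9 FPKM at 3 months.

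**Figure D1:**
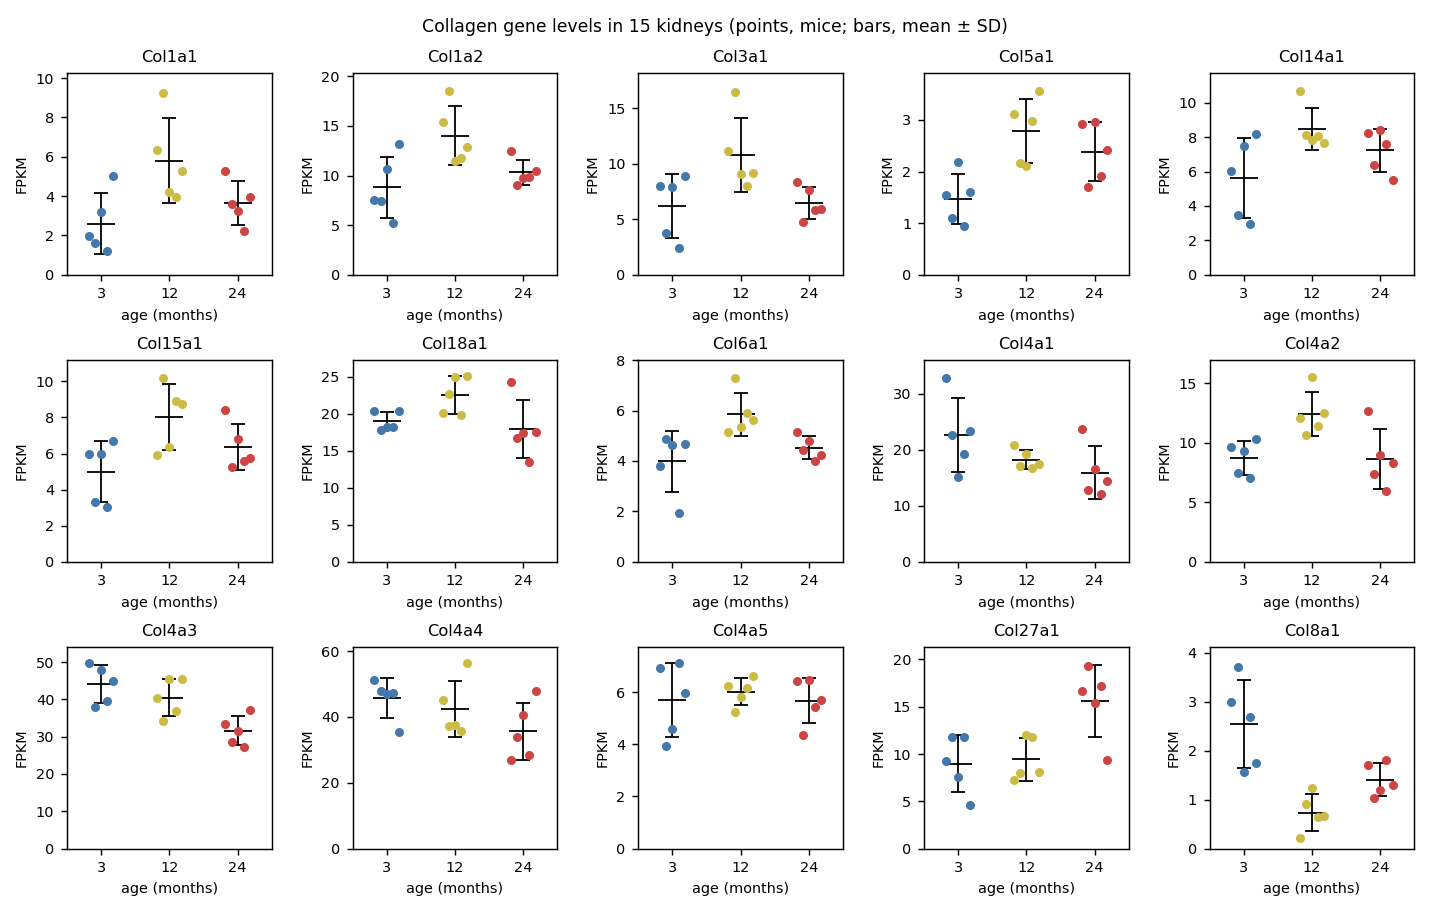
FPKM (vertical axis, linear, from 0) of 15 collagen genes at 3, 12 and 24 months (horizontal axis); each point is 1 mouse, the horizontal tick is the mean and the bar is the SD of 5 mice. The interstitial chains Col1a1, Col1a2 and Col3a1 have their highest mean at 12 months, Col4a3 is lower in all 5 mice at 24 months than in any mouse at 3 months, and Col27a1 exceeds 15 FPKM in 4 of 5 mice at 24 months.

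The ages were compared in 3 ways (24 against 3, 12 against 3 and 24 against 12 months), which share mice and are not independent of each other. Genes were fitted with limma on log2(FPKM + 1), a scale that understates the change of low genes, and p-values were adjusted with the Benjamini-Hochberg method over all genes tested, of which 31755 had FPKM above 0 in the first comparison. At an adjusted p under 0.05 the count was 1 of 44 collagen genes for 24 against 3 months (1.22% of all genes tested), 0 of 44 for 12 against 3 months (0.250%) and 0 of 44 for 24 against 12 months (0.00310%). Since nearly all collagen genes failed the correction, the genes with an unadjusted p under 0.05 are also described, as values. For 24 against 3 months these were 6 genes with a higher mean (11.4% of all genes) and 3 with a lower mean (3.47%), that is 13.6% and 6.82% of the family. For 12 against 3 months there were 17 with a higher mean, 38.6% of the family against 11.4% of all genes, and 1 with a lower mean (2.90% of all genes). For 24 against 12 months there were 2 with a higher mean (3.07% of all genes) and 11 with a lower mean, 25.0% of the family against 3.36% of all genes. Of the 21 genes at a mean of at least 1 FPKM, 14 had their highest mean at 12 months and 14 their lowest at 3 months. This order of means was not counted over all genes. From 3 to 12 months these also leaned upward, with 11.4% higher and 2.90% lower as given above.

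The family medians of the log2 fold change were 0.07, 0.11 and -0.05 for the 3 comparisons, beside 0.02, 0.02 and -0.0013 over all genes tested. Groups that did not overlap were also counted. For 24 against 3 months 1 gene lay higher and 1 lower without overlap (3.82% and 0.910% of all genes), for 12 against 3 months 3 and 1 (3.45% and 0.667%), and for 24 against 12 months 0 and 1 (0.493% and 0.573%). Dividing each mouse by its median ratio to the other libraries left 8 higher and 2 lower genes at an unadjusted p under 0.05 for 12 against 3 months, and 3 higher and 4 lower for 24 against 3 months. With the aligned bases of each library as a covariate, the 12 against 3 month comparison had 0 higher and 2 lower genes. Shares over all genes under this scaling or this covariate are not given here, so these counts have no baseline. With this covariate Col10a1, Col4a4, Col5a1 and Col8a1 no longer had an unadjusted p under 0.05 for 24 against 3 months. For 24 against 12 months Col1a1 alone lost it. The 3-month-old libraries were the shallowest, and the part of depth in values other than these gene fits was not tested.

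**Figure D2:**
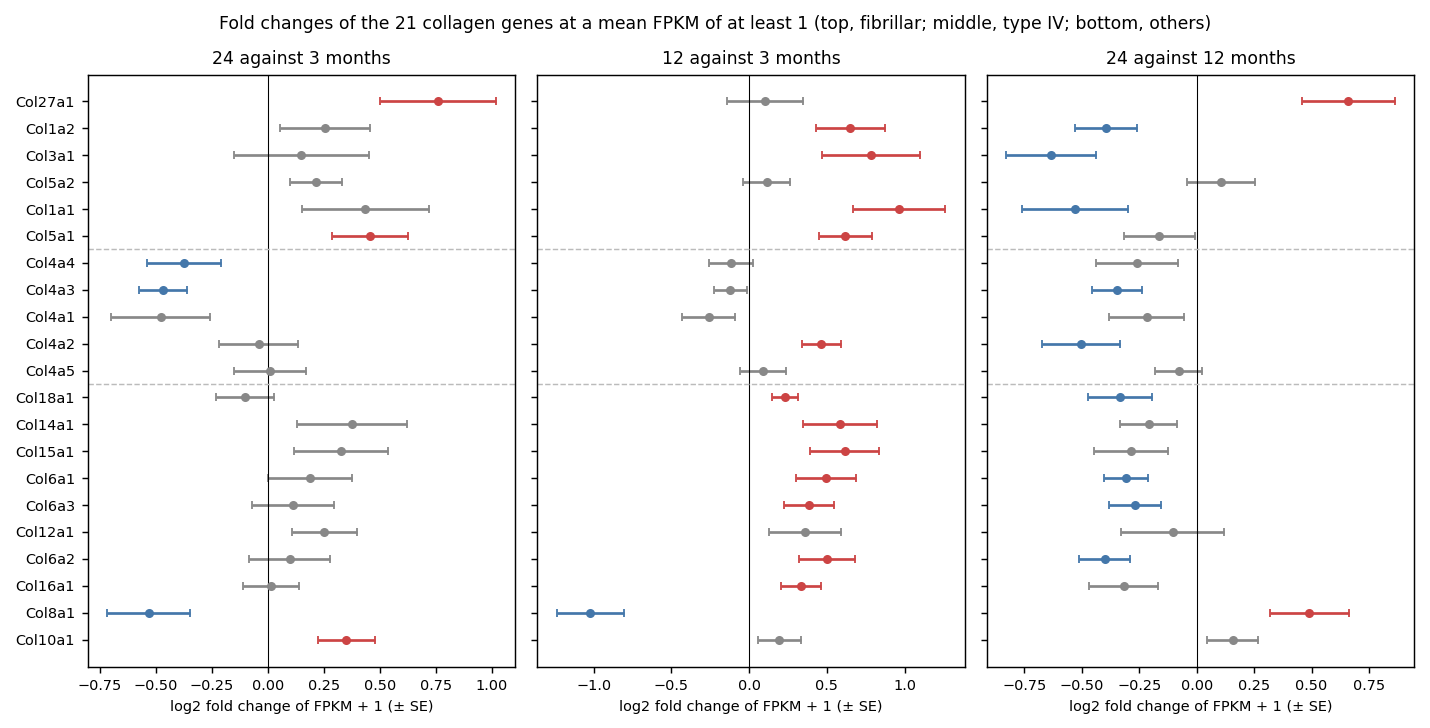
Log2 fold change of FPKM + 1 (horizontal axis, log2 units) with its standard error for the 21 collagen genes at a mean of at least 1 FPKM, in 3 comparisons that share mice; red and blue mark an unadjusted p under 0.05 above and below 0, grey all others, and the dashed lines part fibrillar, type IV and other collagens. From 3 to 12 months 12 of the 21 genes are red and 1 is blue (Col8a1), and from 12 to 24 months 2 are red and 9 are blue.

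Among the fibrillar chains, those of types I and III had their highest levels at 12 months. Col1a1, the alpha1 chain of type I, had 1.98, 1.6, 3.2, 1.2 and 5.01 FPKM at 3 months, 6.35, 9.26, 4.19, 3.97 and 5.26 at 12 months and 5.28, 3.59, 3.25, 2.2 and 3.96 at 24 months. Only mouse 9 of the youngest group reached the range of the 12-month-old mice. The means were 2.6 ± 1.54, 5.8 ± 2.15 and 3.66 ± 1.12 FPKM (SD, n = 5). Against 3 months the log2 fold change at 12 months was 0.96 ± 0.30 (SE, unadjusted p = 0.00938, adjusted p = 0.19). From 12 to 24 months it was -0.53 ± 0.23 (SE, unadjusted p = 0.046, adjusted p = 0.769). That unadjusted p stayed under 0.05 in only 3 of the 10 fits that left out 1 mouse. At 24 months against 3 months the log2 fold change was 0.43 ± 0.28 (SE, unadjusted p = 0.157, adjusted p = 0.529), a difference within the spread of the mice.

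Col1a2, the second chain of type I, had 7.58, 7.48, 10.6, 5.24 and 13.2 FPKM at 3 months, 15.4, 18.5, 11.5, 11.8 and 12.9 at 12 months and 12.5, 9.04, 9.8, 9.87 and 10.4 at 24 months. The groups overlapped, since mouse 9 at 3 months and mouse 31 at 24 months lay within the range of the 12-month-old mice. Its log2 fold change was 0.65 ± 0.22 (SE, unadjusted p = 0.0148, adjusted p = 0.224) for 12 against 3 months and -0.40 ± 0.13 (SE, adjusted p = 0.714) for 24 against 12 months. The second of these turned to 0.13 when only annotated transcripts (class code =) were summed. Col3a1, the single chain of type III, had 8.0, 3.77, 7.93, 2.44 and 8.86 FPKM at 3 months, 11.2, 16.4, 9.11, 8.01 and 9.18 at 12 months and 8.35, 4.76, 7.61, 5.85 and 5.88 at 24 months. Mice 6 and 8 were the lowest of the youngest group, and mouse 18 stood highest of all. The log2 fold change was 0.78 ± 0.32 (SE, unadjusted p = 0.0338, adjusted p = 0.305) from 3 to 12 months and -0.63 ± 0.20 (SE, adjusted p = 0.689) from 12 to 24 months. Between 3 and 24 months the means were 6.2 ± 2.89 and 6.49 ± 1.46 FPKM (SD, n = 5), with a log2 difference of 0.15 ± 0.30 (SE, adjusted p = 0.834).

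The minor fibrillar chains, which join type I fibrils and set their width, were split. Col5a1 had 1.55, 1.1, 2.18, 0.941 and 1.61 FPKM at 3 months, 3.12, 2.16, 2.12, 2.99 and 3.55 at 12 months and 2.92, 1.69, 2.96, 1.92 and 2.42 at 24 months. Its log2 fold change was 0.62 ± 0.17 (SE, unadjusted p = 0.00437, adjusted p = 0.142) for 12 against 3 months and 0.46 ± 0.17 (SE, adjusted p = 0.244) for 24 against 3 months, so that both older groups had means above the youngest. Col5a3 had means of 0.615 ± 0.268, 1.12 ± 0.252 and 0.793 ± 0.193 FPKM (SD, n = 5). The log2 fold change was 0.40 ± 0.14 (SE, adjusted p = 0.234) for 12 against 3 months. Col5a2 had means of 4.38 ± 0.70, 4.87 ± 1.16 and 5.24 ± 0.732 FPKM (SD, n = 5) and an unadjusted p above 0.05 in each comparison. The remaining fibrillar genes Col24a1, Col11a2, Col11a1 and Col2a1 were low, with means over all mice of 0.160, 0.0787, 0.0204 and 0.0135 FPKM.

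Col27a1, a fibrillar chain of cartilage with the shorter repeat shown above, followed another course. It had 9.21, 11.8, 7.56, 11.8 and 4.58 FPKM at 3 months, 7.3, 7.96, 12, 11.8 and 8.13 at 12 months and 16.7, 19.4, 15.4, 17.2 and 9.34 at 24 months. At 24 months 4 of 5 mice were above every younger mouse, and mouse 35 was inside their range. On the log2 scale the fold change was 0.76 ± 0.26 (SE, unadjusted p = 0.0151, adjusted p = 0.20) for 24 against 3 months and 0.66 ± 0.20 (SE, adjusted p = 0.689) for 24 against 12 months. From 3 to 12 months it was 0.10 ± 0.24 (SE, adjusted p = 0.864). In the exact permutation test of mean FPKM, 2-sided over all assignments of the 10 mice to 2 groups of 5, p was 0.0238 for each of the comparisons with the oldest mice, where the smallest possible p is 0.00794.

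Of the basement membrane chains, Col4a3 and Col4a4 had their lowest means at 24 months. Col4a3 had 49.9, 38, 47.9, 39.7 and 45 FPKM at 3 months, 40.4, 34.3, 45.4, 36.8 and 45.6 at 12 months and 33.3, 28.7, 31.6, 27.3 and 37.1 at 24 months. No mouse of 24 months reached the lowest mouse of 3 months, the only such separation downward in the family for this comparison. The log2 fold change was -0.47 ± 0.11 (SE, unadjusted p = 0.0014, adjusted p = 0.0704), just outside the threshold after correction, and the exact permutation p was 0.00794, the smallest these mice can give. From 12 to 24 months it was -0.35 ± 0.11 (SE, unadjusted p = 0.00945, adjusted p = 0.69), and from 3 to 12 months -0.12 ± 0.11 (SE, adjusted p = 0.655). Under each of the 11 other ways of fitting the genes and with each mouse left out in turn, the unadjusted p stayed under 0.05 for both comparisons with the oldest mice.

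Col4a4, which starts 72 bases from Col4a3 on the opposite strand of chromosome 1, had 51.2, 47.9, 46.9, 47.4 and 35.4 FPKM at 3 months, 45.1, 37.3, 37.6, 35.8 and 56.3 at 12 months and 27, 34, 40.7, 28.3 and 47.8 at 24 months. The groups overlapped, since mouse 35 at 24 months had 47.8 FPKM and mouse 9 at 3 months had 35.4. Its log2 fold change was -0.38 ± 0.17 (SE, unadjusted p = 0.0475, adjusted p = 0.329) for 24 against 3 months, and the unadjusted p passed 0.05 when any of 7 mice was left out (3-month-old mice 5, 6, 7 and 8 and 24-month-old mice 31, 32 and 34). Col4a5, the third chain of this network, lies on the X chromosome and had means of 5.7 ± 1.42, 6.01 ± 0.524 and 5.67 ± 0.865 FPKM (SD, n = 5). The log2 fold change was 0.01 ± 0.16 (SE, adjusted p = 0.981) for 24 against 3 months. Col4a6 had a mean of 0.610 FPKM and starts 1309 bases from Col4a5.

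Col4a1 and Col4a2, whose annotated starts lie 21 bases apart on chromosome 8, are described next. Col4a1 had 32.8, 22.6, 15.2, 19.2 and 23.4 FPKM at 3 months, 20.7, 17, 19.1, 16.7 and 17.4 at 12 months and 23.7, 12.8, 16.6, 12.1 and 14.3 at 24 months. Its highest value at each older age was within the range at 3 months, and the log2 fold change of -0.48 ± 0.22 (SE, adjusted p = 0.357) for 24 against 3 months did not pass either limit. Col4a2 had 9.66, 7.43, 9.26, 7.06 and 10.3 FPKM at 3 months, 12.1, 10.6, 15.5, 11.4 and 12.5 at 12 months and 12.6, 7.32, 9.0, 5.94 and 8.26 at 24 months. All 12-month-old mice were above all 3-month-old mice, and the log2 fold change was 0.46 ± 0.12 (SE, unadjusted p = 0.00427, adjusted p = 0.141). From 12 to 24 months it was -0.50 ± 0.17 (SE, unadjusted p = 0.0154, adjusted p = 0.714). Counted as fragments of the library without division by length, the log2 fold change of Col4a2 for 12 against 3 months turned to -0.12 with an unadjusted p of 0.490.

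Of the type VI chains, which form the beaded filaments around interstitial cells, Col6a1, Col6a2, Col6a3 and Col6a5 had their highest mean at 12 months. Col6a1 had 3.81, 4.86, 4.64, 1.91 and 4.68 FPKM at 3 months, 5.14, 7.28, 5.33, 5.89 and 5.6 at 12 months and 5.15, 4.43, 4.78, 4.01 and 4.22 at 24 months. All 12-month-old mice were above all 3-month-old mice, among which mouse 8 was lowest. The fold change on the log2 scale was 0.49 ± 0.19 (SE, unadjusted p = 0.0286, adjusted p = 0.285) from 3 to 12 months and -0.31 ± 0.10 (SE, adjusted p = 0.707) from 12 to 24 months. Col6a2 had means of 2.19 ± 0.797, 3.42 ± 0.496 and 2.34 ± 0.372 FPKM (SD, n = 5), and log2 fold changes of 0.50 ± 0.18 (SE, adjusted p = 0.252) and -0.40 ± 0.11 (SE, adjusted p = 0.673). Col6a3 had means of 3.7 ± 1.07, 5.0 ± 0.388 and 4.02 ± 0.74 FPKM (SD, n = 5), with 0.38 ± 0.16 (SE, adjusted p = 0.325) and -0.27 ± 0.11 (SE, adjusted p = 0.755). These changes of Col6a3 kept an unadjusted p under 0.05 in only 3 and 4 of the 10 fits that left out 1 mouse. Col6a5 (mean 0.105 FPKM) had a log2 fold change of 0.11 ± 0.04 (SE, adjusted p = 0.197) for 12 against 3 months, and Col6a6, whose means of 0.45 ± 0.381, 0.252 ± 0.0999 and 0.146 ± 0.0397 FPKM (SD, n = 5) were highest at 3 months, had -0.12 ± 0.05 (SE, adjusted p = 0.764) for 24 against 12 months. Col6a4 had means of 0.0744 ± 0.014, 0.118 ± 0.0505 and 0.134 ± 0.0929 FPKM (SD, n = 5) and no unadjusted p under 0.05.

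Collagens that border basement membranes and those that bind fibrils mostly had their highest mean at 12 months. Col15a1 had 5.99, 3.33, 5.97, 3.01 and 6.7 FPKM at 3 months, 5.91, 10.2, 6.38, 8.92 and 8.72 at 12 months and 8.39, 5.23, 6.79, 5.61 and 5.73 at 24 months, with a log2 fold change of 0.62 ± 0.22 (SE, adjusted p = 0.251) for 12 against 3 months. Col18a1 had means of 19 ± 1.25, 22.6 ± 2.55 and 17.9 ± 3.94 FPKM (SD, n = 5), with log2 fold changes of 0.23 ± 0.08 (SE, adjusted p = 0.255) for 12 against 3 and -0.33 ± 0.14 (SE, adjusted p = 0.753) for 24 against 12 months. The second of these kept an unadjusted p under 0.05 in only 3 of the 10 fits that left out 1 mouse. The FACIT collagen Col14a1 had 6.01, 3.49, 7.47, 2.96 and 8.16 FPKM at 3 months, 10.7, 8.1, 7.86, 8.05 and 7.68 at 12 months and 8.26, 6.37, 8.4, 7.61 and 5.48 at 24 months. Its log2 fold change for 12 against 3 months was 0.59 ± 0.24 (SE, unadjusted p = 0.0338, adjusted p = 0.305), and mice 6 and 8 were again the lowest at 3 months. Col16a1 had means of 1.83 ± 0.184, 2.59 ± 0.613 and 1.88 ± 0.445 FPKM (SD, n = 5) and a log2 fold change of 0.33 ± 0.13 (SE, adjusted p = 0.284) for 12 against 3 months. Col12a1 had means of 2.33 ± 0.613, 3.43 ± 1.65 and 2.96 ± 0.587 FPKM (SD, n = 5) with no unadjusted p under 0.05. Col19a1 (mean 0.709 FPKM) had a log2 fold change of -0.30 ± 0.09 (SE, adjusted p = 0.689) for 24 against 12 months, without overlap between these ages, and the cartilage chain Col9a3 (mean 0.0746 FPKM) one of 0.09 ± 0.04 (SE, adjusted p = 0.273) for 24 against 3 months and 0.05 ± 0.02 (SE, adjusted p = 0.344) for 12 against 3 months.

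Mouse 8 held the lowest 3-month value in 11 of the 21 genes at a mean of at least 1 FPKM, and no other mouse was lowest of its age in more than 7. The summed fibroblast, pericyte and smooth muscle markers were also lowest at 3 months, and their part in the collagen values was not tested. Of the 17 genes with a higher mean at 12 than at 3 months at an unadjusted p under 0.05, 14 kept that p without mouse 8 (all but Col3a1, Col14a1 and Col16a1) and 13 without mouse 6 (all but Col3a1, Col6a3, Col9a3 and Col14a1). Without 12-month-old mouse 18, 11 of the 17 did.

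The network-forming collagens differed in direction. Col8a1, a chain of vessel walls and of the mesangium, had 3.0, 3.71, 1.57, 2.68 and 1.75 FPKM at 3 months, 0.215, 0.907, 1.23, 0.636 and 0.672 at 12 months and 1.71, 1.02, 1.2, 1.8 and 1.29 at 24 months. All 12-month-old mice were below all 3-month-old mice, and the 24-month-old mice overlapped with both. Its log2 fold change was -1.02 ± 0.22 (SE, unadjusted p = 0.000866, adjusted p = 0.0838) for 12 against 3 months, -0.53 ± 0.19 (SE, adjusted p = 0.214) for 24 against 3 months and 0.49 ± 0.17 (SE, adjusted p = 0.72) for 24 against 12 months. When only annotated transcripts (class code =) were summed, none of these changes had an unadjusted p under 0.05. The last of them was then 0.0064 (limma unadjusted p = 0.985). At an unadjusted p under 0.05 with a change above 1 on the log2 scale in either direction, which are not the limits given in the methods of the study, Col8a1 was the only collagen gene called, and only for 12 against 3 months (0.499% of all genes), with 0 of 44 for 24 against 3 months (0.523%) and 0 of 44 for 24 against 12 months (0.170%). Col8a2, its partner chain, was low and had means of 0.0423 ± 0.0262, 0.124 ± 0.0506 and 0.0837 ± 0.0276 FPKM (SD, n = 5). Its log2 fold changes were 0.11 ± 0.03 (SE, adjusted p = 0.17) for 12 against 3 months and 0.06 ± 0.02 (SE, adjusted p = 0.284) for 24 against 3 months. Col10a1, a collagen of hypertrophic cartilage, had 1.57, 1.28, 1.47, 0.949 and 0.837 FPKM at 3 months, 1.21, 2.03, 1.63, 1.37 and 1.43 at 12 months and 1.87, 1.68, 2.0, 2.03 and 1.49 at 24 months, with a log2 fold change of 0.35 ± 0.13 (SE, adjusted p = 0.228) for 24 against 3 months.

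The one collagen gene that passed the correction was Col25a1, a membrane-spanning collagen known from neurons, and its level was low. It had 0.0522, 0.0645, 0.071, 0.0399 and 0.154 FPKM at 3 months, 0.225, 0.248, 0.269, 0.122 and 0.137 at 12 months and 0.188, 0.265, 0.301, 0.205 and 0.31 at 24 months. All 24-month-old mice were above all 3-month-old mice, and mouse 9 was the highest of its age. Col25a1 rose at 24 against 3 months with a log2 fold change of 0.22 ± 0.04 (SE, unadjusted p = 0.000235, adjusted p = 0.0346) on the scale of FPKM + 1, and the mean FPKM was 3.32 times as high. For 12 against 3 months the log2 fold change was 0.16 ± 0.04 (SE, adjusted p = 0.148). The call was lost in 8 of the 10 fits that left out 1 mouse (it held without 3-month-old mouse 9 and without 24-month-old mouse 31). The other membrane-spanning collagens Col23a1, Col17a1 and Col13a1 (means 0.656, 0.185 and 0.177 FPKM), the anchoring collagen Col7a1 (0.548), and Col26a1, Col20a1, Col28a1, Col22a1, Col9a1 and Col9a2 (0.00255 to 0.850) had no unadjusted p under 0.05 in any comparison.

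Fibrillar and basement membrane chains were then set against each other in each mouse. The summed FPKM of 11 fibrillar genes was 33.4, 31.3, 36.1, 27.7 and 38 at 3 months, 50.1, 60.9, 46.6, 43.7 and 44.3 at 12 months and 52.1, 45.9, 44.4, 42.8 and 38.7 at 24 months. The groups of 12 and 24 months lay above every 3-month-old mouse. After each mouse was divided by its median ratio to the other libraries, the 24-month-old and 3-month-old mice overlapped. Mouse 35 at 24 months (37.4) then lay below mouse 9 at 3 months (38.5). The sum of 6 type IV genes was 151, 120.2, 124, 121 and 121 at 3 months, 125, 105, 124, 107 and 139 at 12 months and 104, 87.7, 105, 79.8 and 114 at 24 months. Type IV thus exceeded the fibrillar sum in every mouse, and the oldest mice lay below every 3-month-old mouse. The log2 ratio of the fibrillar to the type IV sum had medians of -1.94, -1.32 and -0.99 at 3, 12 and 24 months, with ranges of -2.18 to -1.67, -1.65 to -0.79 and -1.56 to -0.90. Every 24-month-old mouse was above every 3-month-old mouse in this ratio, whereas the ratios at 12 and 24 months overlapped. No test was made of these sums, since the members were chosen with results known.

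The separation of the ages rested in part on Col27a1. Without Col27a1 the fibrillar sum had medians of 24.2, 36.2 and 29.0 FPKM, so the difference between the 24-month and the 12-month median ratio went from 0.33 to 0.02 on the log2 scale when this gene was left out, and the difference between 24 and 3 months from 0.95 to 0.90. Without it the fibrillar sum was 15.9 to 33.4 FPKM at 3 months, 32 to 53.0 at 12 months and 25.6 to 35.4 at 24 months, so that the youngest mice overlapped with both older groups. The log2 ratio without it was -2.93 to -1.86, -1.94 to -0.99 and -1.96 to -1.55, and mouse 35 at 24 months (-1.96) then lay below mouse 9 at 3 months (-1.86). The sum of Col1a1, Col1a2 and Col3a1 was 17.6, 12.8, 21.8, 8.88 and 27 FPKM at 3 months, 32.9, 44.2, 24.8, 23.8 and 27.4 at 12 months and 26.1, 17.4, 20.7, 17.9 and 20.3 at 24 months. The youngest and oldest mice overlapped in this sum. The sum of Col4a3, Col4a4 and Col4a5, the chains of the glomerular basement membrane, had medians of 94.2, 88.8 and 67.0 FPKM and ranges of 86.4 to 108, 76.9 to 108 and 61.0 to 90.6. The sum of Col4a1 and Col4a2 had medians of 30.0, 29.9 and 22.6 FPKM. Over the same ages none of the 6 podocyte markers had an unadjusted p under 0.05 in any comparison, and their median log2 fold change for 24 against 3 months was -0.17. The part of podocytes in the Col4a3, Col4a4 and Col4a5 values was not tested. The type VI sum had medians of 11.4, 14.4 and 11.5 FPKM, with mouse 8 at 5.38.

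**Figure D3:**
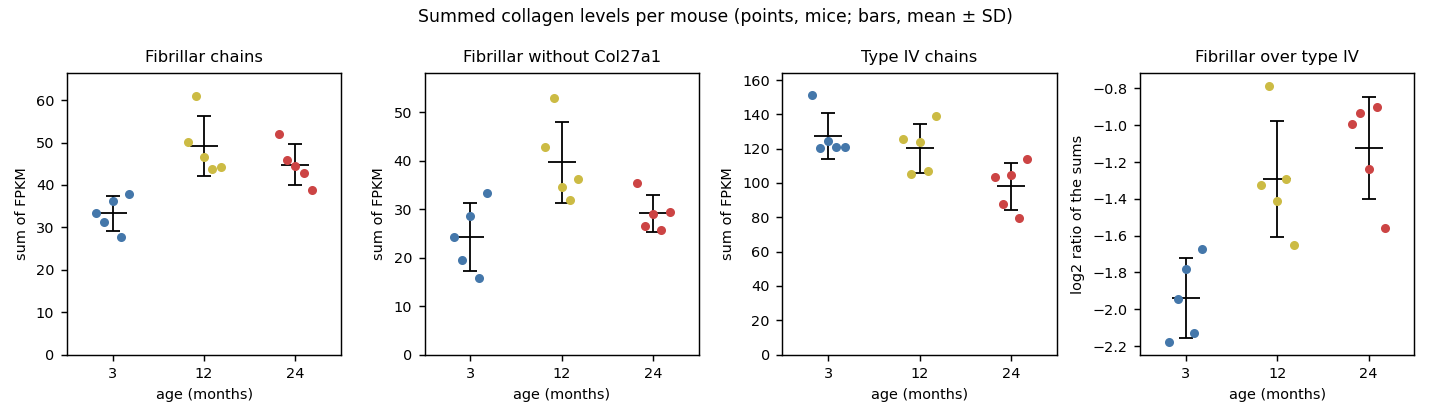
Sum of FPKM of 11 fibrillar genes, of the same list without Col27a1, and of 6 type IV genes (vertical axes, linear, from 0), and the log2 ratio of the fibrillar to the type IV sum, at 3, 12 and 24 months; points are mice, ticks and bars are mean and SD of 5 mice. The fibrillar sum has medians of 33.4, 46.6 and 44.4, the type IV sum 121, 124 and 104, and every 24-month-old mouse has a higher ratio than every 3-month-old mouse.

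Chains that assemble into one molecule were compared per length within each mouse, as a description. Type I molecules hold an excess of the alpha1 chain, but the ratio of Col1a1 to Col1a2 was between 0.214 and 0.50 in all 15 mice, with medians of 0.262, 0.407 and 0.379 at 3, 12 and 24 months. Col4a3 and Col4a4 were close to each other, with ratios between 0.776 and 1.27. Col4a1 to Col4a2 was between 1.64 and 3.40 at 3 months, between 1.23 and 1.72 at 12 months and between 1.73 and 2.04 at 24 months, so the 12-month-old mice lay below the oldest. Isoforms longer than 10000 bases held 31.7%, 58.8% and 58.3% of the FPKM of Col4a1 at 3, 12 and 24 months. For Col4a2 these shares were 73.4%, 36.7% and 52.9%. The part of isoform length in this ratio was not tested. Col4a5 exceeded Col4a6 by ratios of 6.00 to 15.7. The ratio of Col6a1 to Col6a2 was between 1.34 and 2.39 and that of Col6a1 to Col6a3 between 0.760 and 1.51. Col5a1 to Col5a2 had medians of 0.402, 0.551 and 0.440.

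The transcripts behind the gene values differed in kind. Of the 209 transcripts 179 were annotated and 30 were assembled isoforms, and a further 12 inside introns and 1 on the opposite strand were not counted. Isoforms longer than 10000 bases held 73.0% of the FPKM of Col4a4, 60.6% of Col12a1, 52.2% of Col4a2, 47.8% of Col4a1, 38.1% of Col6a3 and 34.8% of Col27a1. For Col4a2 the 27295-base isoform MSTRG.34764.2 had means of 6.42 ± 1.62, 4.55 ± 1.70 and 4.57 ± 0.382 FPKM at 3, 12 and 24 months (SD, n = 5), and the annotated full-length ENSMUST00000033899 had 1.73 ± 1.33, 7.17 ± 3.50 and 3.50 ± 2.34. Of these 2 forms only the annotated one had its highest mean at 12 months. For Col4a3 the annotated full-length ENSMUST00000113457 held 88.1% of the gene, with means of 37.7 ± 5.29, 35.8 ± 4.60 and 28.8 ± 3.55 FPKM (SD, n = 5), and the 2-exon ENSMUST00000141994 at its start had 6.21 ± 0.537, 4.60 ± 1.47 and 2.73 ± 1.60. For Col1a1 and Col3a1 the annotated full-length forms held 96.4% and 81.9%. No collagen transcript passed an adjusted p under 0.05 in any comparison (limma over all transcripts).

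Col27a1 was mostly not in its full-length form. ENSMUST00000036300, with 61 exons and 7612 bases, had means of 1.42 ± 1.76, 1.08 ± 0.906 and 0.508 ± 0.639 FPKM at 3, 12 and 24 months (SD, n = 5). The 24259-base isoform MSTRG.24764.7, which spans chr4:63215473-63335034, had 2.35 ± 0.865, 1.91 ± 0.595 and 4.64 ± 1.76. The shorter annotated transcripts ENSMUST00000125504 (25 exons) and ENSMUST00000148751 (16 exons), which end inside the gene, had 1.12 ± 0.336, 1.15 ± 0.245 and 2.62 ± 0.604, and 1.27 ± 0.745, 1.35 ± 1.01 and 2.61 ± 1.02. The higher gene level at 24 months was therefore carried by forms other than the full-length transcript. How the assembler divided reads between these overlapping forms cannot be told apart from a change in the forms.

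**Figure D4:**
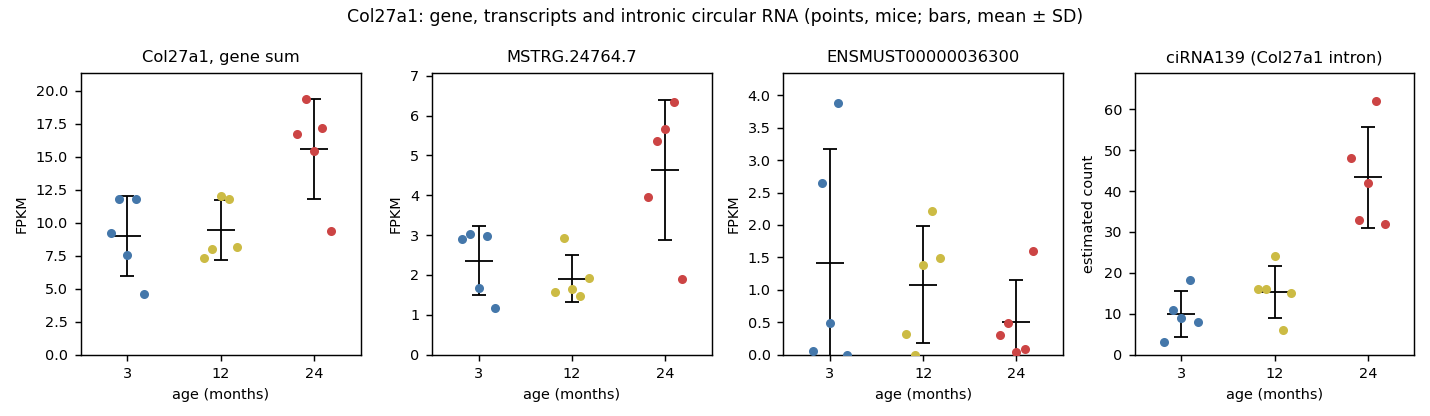
Col27a1 gene sum, its 24259-base isoform MSTRG.24764.7 and its annotated full-length transcript ENSMUST00000036300 (FPKM), and the intronic circRNA ciRNA139 (estimated count), at 3, 12 and 24 months on linear axes from 0; points are mice, ticks and bars are mean and SD of 5 mice. The gene sum, the long isoform and ciRNA139 have their highest means at 24 months, and the full-length transcript has its lowest there.

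CircRNAs are closed RNA molecules made by back-splicing of exons (circRNA) or from intron lariats (ciRNA), and 21 of them had a collagen host. There were 8 exonic and 13 intronic ones from 9 hosts, and 14 of the 21 came from Col4a3 (7, all intronic) and Col4a4 (4 exonic, 3 intronic). Both ends of each exonic circle matched annotated exon ends. The back-splice junctions of those that the results turn on are shown as the last 25 bases of the last exon in small letters and the first 25 bases of the first exon in capitals.
circRNA9211, Col4a4 exons 19 to 29, chr1:82491525-82523955, minus strand: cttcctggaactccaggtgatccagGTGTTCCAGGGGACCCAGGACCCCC
circRNA8011, Col4a4 exons 19 to 44, chr1:82462051-82523955, minus strand: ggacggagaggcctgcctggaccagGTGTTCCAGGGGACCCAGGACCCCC
circRNA2174, Col4a4 exons 45 to 46, chr1:82455723-82456895, minus strand: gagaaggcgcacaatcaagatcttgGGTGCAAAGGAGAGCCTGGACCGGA
circRNA8064, Col4a1 exons 21 to 24, chr8:11231398-11235259, minus strand: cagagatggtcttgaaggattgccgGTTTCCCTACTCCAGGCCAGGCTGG
circRNA4671, Col12a1 exons 37 to 42, chr9:79639672-79647721, minus strand: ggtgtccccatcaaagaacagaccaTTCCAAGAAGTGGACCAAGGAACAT
The first 2 share exon 19 as their first exon and therefore the same capitals, and they overlap over 11 exons. Their values are not independent of each other.

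The deposited estimated counts were compared with edgeR's quasi-likelihood test over 11924 circRNAs for 24 against 3 months. How they were made is not given in the sources used here, and they summed to between 6974490 and 9889970 per mouse. Counts, their means and their overlap are given as deposited. The fold changes were taken after scaling the libraries (TMM, trimmed mean of M-values), so the 2 can differ. For 12 against 3 months circRNA8011 had means of 8673 and 8490 and a log2 fold change of -0.15. Exonic circles reached levels of the order of their hosts. Circle circRNA8011 had a mean of 67.2 FPKM and circRNA9211 one of 36.6, beside 41.2 for Col4a4, circRNA9212 of the same host (exons 13 to 19) had 83.1, and circRNA9205 of Col5a2 (52 exons) had 5.90 beside 4.83. Reads from linear RNA or introns over the same interval cannot be told apart from reads of circles in these values.

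At 24 against 3 months 6 of the 21 collagen circRNAs passed an adjusted p under 0.05 (13.3% of all circRNAs tested), 1 higher and 5 lower (6.66% and 6.61%). The one that rose was ciRNA139, from an intron of Col27a1 at chr4:63313742-63314672 on the plus strand. Its estimated counts were 3.0, 11, 9.0, 18.3 and 8.0 at 3 months, 16, 16, 24, 6.0 and 15 at 12 months and 48, 33, 42, 62 and 32 at 24 months. All 24-month-old mice were above all younger mice. The log2 fold change was 1.97 ± 0.29 (SE, adjusted p = 0.00186) against 3 months and 1.5 ± 0.23 (SE, adjusted p = 0.0203) against 12 months. The second of these calls was lost without 24-month-old mouse 33, and the first held without any 1 mouse. The interval lies within the span of the long Col27a1 isoform described above, whose mean was also highest at 24 months.

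The 5 that fell all came from type IV hosts, as did most of the 21 (7 from Col4a3, 7 from Col4a4 and 1 from Col4a1). Intronic ciRNA514, ciRNA810 and ciRNA893 came from Col4a3. Of these ciRNA810, at chr1:82693546-82696232, had 883, 477, 558, 467 and 518 at 3 months, 409, 319, 403, 258 and 368 at 12 months and 318, 225, 241, 254 and 479 at 24 months. Mouse 5 was far above the others at 3 months, and mouse 35 was the highest at 24 months. Its log2 fold change was -1.10 ± 0.22 (SE, adjusted p = 0.00647) for 24 against 3 months. For 12 against 3 months it was -0.91 ± 0.16 (SE, adjusted p = 0.0107), the only collagen circRNA to pass in that comparison (1 of 21, with 6.63% of all circRNAs). Intronic ciRNA514, at chr1:82670271-82671303, had 165, 152, 151, 153 and 96.4 at 3 months, 156, 67.6, 138, 65 and 104 at 12 months and 96, 59.5, 59, 70.2 and 122 at 24 months, with mouse 9 the lowest of the youngest. For ciRNA514 and ciRNA893 the log2 fold changes for 24 against 3 months were -0.98 ± 0.18 (SE, adjusted p = 0.00527) and -0.85 ± 0.21 (SE, adjusted p = 0.0185).

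The exonic circles that fell were circRNA8064 of Col4a1 and circRNA9211 of Col4a4. Circle circRNA8064 had 597, 366, 347, 368 and 507 at 3 months, 528, 366, 455, 269 and 385 at 12 months and 375, 236, 320.2, 365 and 299 at 24 months, with a log2 fold change of -0.63 ± 0.16 (SE, adjusted p = 0.0234) for 24 against 3 months, a call that was lost without 3-month-old mouse 9 or without 24-month-old mouse 35. Circle circRNA9211 had 2786, 2061, 2031, 2116 and 1872 at 3 months, 2703, 1824, 2646, 1509 and 2328 at 12 months and 1924, 1405, 1544, 1530.5 and 2416 at 24 months. Both sets of counts overlapped between the ages, and the second circle had a log2 fold change of -0.46 ± 0.14 (SE, adjusted p = 0.0464). Its call was lost in 9 of the 10 fits that left out 1 mouse, with every mouse but 24-month-old mouse 35. The linear gene Col4a4 had a log2 fold change of -0.38 over the same comparison, and no test of circle against host was made.

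At an unadjusted p under 0.05 there were 15 of 21 for 24 against 3 months (28.8% of all circRNAs), 6 for 12 against 3 months (23.7%) and 5 for 24 against 12 months (16.9%). Most of these 15 came from Col4a3 and Col4a4, which host 14 of the 21 and start 72 bases apart. They are therefore not independent members to set against the share of all circRNAs. Of the 9 that did not pass the correction for 24 against 3 months, circRNA2174 (log2 fold change -0.34 ± 0.11, SE), circRNA8011 (-0.42 ± 0.17), ciRNA228 (-0.70 ± 0.26), ciRNA513 (-0.91 ± 0.30) and ciRNA1023 (-0.83 ± 0.36) came from Col4a3 and Col4a4, and so did ciRNA511, ciRNA650 and ciRNA734, whose intervals differ by at most 6 bases at one end and which count as 1 signal (-0.42, -0.43 and -0.42). The remaining one, circRNA4671 of Col12a1, had counts of 85.1, 77, 54.5, 77.2 and 73.5 at 3 months and 161, 72, 126, 104 and 105 at 24 months, with 0.46 ± 0.18 (SE, adjusted p = 0.101). For 12 against 3 months the log2 fold changes at an unadjusted p under 0.05 that missed the correction were -0.63 for ciRNA514, -1.01 for ciRNA1023, -0.59 for ciRNA228, -0.55 for ciRNA513 and 0.41 for circRNA4671, whose counts did not overlap between these ages. For 24 against 12 months ciRNA139 alone passed (1 of 21, with 0.738% of all circRNAs), and circRNA2174 (-0.45), circRNA8064 (-0.31), circRNA9211 (-0.30) and circRNA8011 (-0.27) had an unadjusted p under 0.05. The highest counts of all belonged to circRNA8011, with means of 8490.0, 8673 and 7119 at 3, 12 and 24 months, followed by circRNA9211, circRNA9212 (1499, 1651 and 1381), circRNA9205 (834, 1036 and 1055) and circRNA2174 (634, 764 and 556).

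**Figure D5:**
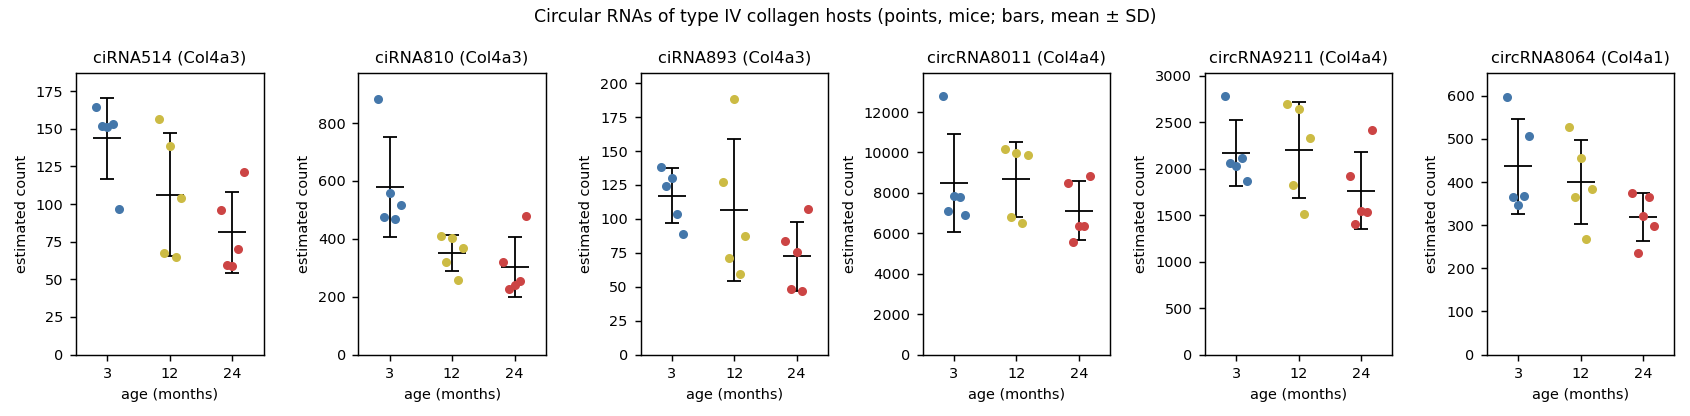
Estimated counts (vertical axes, linear, from 0) of 3 intronic circRNAs of Col4a3, 2 exonic circRNAs of Col4a4 and 1 of Col4a1 at 3, 12 and 24 months; points are mice, ticks and bars are mean and SD of 5 mice. All 6 have their lowest mean at 24 months, and 3-month-old mouse 5 is the highest of its age in each of them.

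Collagen synthesis also needs enzymes that modify the chains, and these were read from lists of 19 genes for synthesis and secretion, 14 for propeptide processing and crosslinking, 11 for proteins bound to fibrils, 16 for other basement membrane proteins, 9 for receptors and 11 for breakdown. For 24 against 3 months 1 of these 80 genes passed the correction, beside 1.22% of all genes. At an unadjusted p under 0.05, 11.4% of all genes had a higher and 3.47% a lower mean in this comparison, and the counts of each list below are to be read beside these shares. Colgalt2, which adds galactose to hydroxylysine in collagen, rose at 24 months. Its means were 2.55 ± 0.431 FPKM at 3 and 4.21 ± 0.328 FPKM at 24 months (SD, n = 5) and it had a log2 fold change of 0.56 ± 0.10 (SE, adjusted p = 0.0343). In the same list P4ha1, a catalytic chain of prolyl 4-hydroxylase, had means of 10.1 ± 1.39 and 7.42 ± 1.15 FPKM (SD, n = 5) and a log2 fold change of -0.40 ± 0.12 (SE, adjusted p = 0.154), and 3 of the 19 genes had a lower and 1 a higher mean at an unadjusted p under 0.05. The median log2 fold change of that list was 0.02, the same as over all genes.

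Among the crosslinking genes Loxl3, a lysyl oxidase, had the smallest p, from 0.797 to 1.52 FPKM with a log2 fold change of 0.48 ± 0.11 (SE, adjusted p = 0.0755), and Pxdn, which crosslinks type IV, had a log2 fold change of -0.25 ± 0.11 (SE, adjusted p = 0.318). Of the 11 fibril-associated genes, Dcn (decorin) and Bgn (biglycan) had a log2 fold change of 0.70 ± 0.26 (SE, adjusted p = 0.25) and one of 0.47 ± 0.18 (SE, adjusted p = 0.253), and 4 of 11 had a higher and 0 a lower mean at an unadjusted p under 0.05. Of the 16 basement membrane proteins 3 had a higher and 3 a lower mean. Npnt (nephronectin, an integrin ligand of glomerular and tubular basement membranes) had means of 21.6 ± 3.51 and 13.5 ± 2.83 FPKM (SD, n = 5) and a log2 fold change of -0.65 ± 0.15 (SE, adjusted p = 0.0766), and Lama1, a laminin chain, had a log2 fold change of 0.47 ± 0.12 (SE, adjusted p = 0.0999). The receptors with the smallest p were Itga11 with a log2 fold change of 0.22 ± 0.06 (SE, adjusted p = 0.134) and Mrc2, the endocytic collagen receptor, with a log2 fold change of 0.42 ± 0.15 (SE, adjusted p = 0.243). In the breakdown list no gene had an unadjusted p under 0.05, and Timp2 and Mmp8 had the smallest p, with a log2 fold change of 0.29 ± 0.13 (SE, adjusted p = 0.343) and one of -0.14 ± 0.08 (SE, adjusted p = 0.489).

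At 12 against 3 months none of the 6 lists held a gene that passed the correction. At an unadjusted p under 0.05, 6 of 11 fibril-associated genes, 5 of 11 breakdown genes, 4 of 14 crosslinking genes, 4 of 16 basement membrane genes, 3 of 9 receptors and 2 of 19 synthesis genes had a higher mean, beside 11.4% of all genes, and the median log2 fold changes of these lists were 0.50, 0.26, 0.14, 0.13, 0.14 and 0.07. A lower mean was found for 3 of 19 synthesis genes, 1 of 16 basement membrane genes and 1 of 9 receptors, beside 2.90% of all genes, and for 0 in the other 3 lists. At 24 against 12 months 3 of 11 breakdown genes, 4 of 14 crosslinking genes, 1 of 19 synthesis genes, 1 of 11 fibril-associated genes, 1 of 16 basement membrane genes and 0 of 9 receptors had a lower mean, beside 3.36% of all genes. A higher mean was found for 1 gene each of the breakdown, synthesis, basement membrane and receptor lists and for 0 of the other lists, beside 3.07% of all genes, and again none passed the correction. Of the 7 lymphocyte markers 5 had a higher mean at 24 and 4 at 12 than at 3 months at an unadjusted p under 0.05, of the 8 fibroblast, pericyte and smooth muscle markers 2 and 2, and of the 6 macrophage markers 0 and 2, beside 11.4% of all genes at either age. For 12 against 3 months 1 of 4 adrenal cortex markers tested passed the correction, beside 0.250% of all genes (Mc2r, limma adjusted p = 0.0448), and Star had an adjusted p of 0.272. For 24 against 3 months Star and Mc2r had adjusted p of 0.0984 and 0.0683. Aqp2, a collecting duct marker, had means of 69.6, 27.0 and 33.7 FPKM at 3, 12 and 24 months. The part of these markers in the collagen values was not tested.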

How the data were processed

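RNA from 15 kidneys, 5 at each age, was sequenced by the authors, who per the methods of the study trimmed reads with Cutadapt, aligned them to the mouse genome (GRCm38, Ensembl release 88) and assembled and quantified transcripts with StringTie. The deposited transcript table holds FPKM and coverage (a signal: mean read depth over a transcript), both made by the authors. The deposited circRNA table holds estimated counts, of which between 83.6% and 94.6% per mouse were not whole (tolerance 0.001), and FPKM. All per-sample columns were used or mapped (0 left aside).

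Gene FPKM was the sum over class codes =, c, j and o. Aligned bases per mouse were taken from the ratio of coverage to FPKM, which is nearly the same for every transcript of a mouse. Genes with FPKM above 0 in any of the 10 mice were fitted on log2(FPKM + 1) with limma 3.58.1 (moderated test, 5 against 5 mice, no covariate), and rounded circRNA counts, kept where at least 5 of the 10 mice had one, with the quasi-likelihood test of edgeR 4.0.16, both in R 4.3.3. P-values were adjusted with the Benjamini-Hochberg method over all features. Exact permutation tests were 2-sided over all assignments (scipy 1.17.1, numpy 2.4.6, pandas 2.3.3, Python 3.11.15). Figures were drawn with matplotlib 3.10.9. On simulated data for 24 against 3 months with 200 genes changed by 1.5 on the log2 scale, limma recovered 171 (with 13 other calls among 31755 genes) and edgeR 199 (17 other calls among 11922 circRNAs). The changed features were drawn only from those with higher levels. These counts therefore do not give the recovery of low collagen genes or of smaller changes.

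The members and lists were chosen with earlier results of these data known. Every member is accounted for, and those with a mean of at least 1 FPKM or an unadjusted p under 0.05 are described. Of each pathway list those with an adjusted p under 0.05 and the 2 with the smallest p for 24 against 3 months are named, and of the circRNAs the 5 with the highest mean count and those with an unadjusted p under 0.05. Alternatives were a pseudocount of 0.1, a mean of at least 1 FPKM, TPM, median-ratio scaling, a fit to all 15 mice, a robust prior, other class codes, an F test with a library covariate, aligned bases as a covariate, an unadjusted p under 0.05 with an absolute log2 fold change above 1 as limits, DESeq2 1.42.0 for counts, and each mouse left out. Fragments not divided by length, and the fibrillar list without Col27a1, were added after seeing the data. Aligned bases set the depth, and intervals for single values need counts that FPKM does not give.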

Additional observations from a re-analysis of the deposited data

Results flagged for a closer look

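In 13 of 162 groups of 5 mice, 1 mouse lay apart from the others, by a gap to its neighbour of more than 0.71 of the whole range. Chance gives about 1 in 20 groups, and many of these share a mouse or an interval. The 3-month-old mouse 5 was the highest of its age in 7 of them, with counts of 12773 for circRNA8011 (next 7837), 2786 for circRNA9211 (next 2116), 883 for ciRNA810 (next 558), 173 for ciRNA650, 169.6 for ciRNA511 and 169 for ciRNA734 (next 109.8, 108.8 and 108.8), and with a type IV sum of 151 FPKM (next 124). The 3-month-old mouse 9 was the highest for Col25a1 (0.154 FPKM, next 0.0710) and the lowest for Col4a4 (35.4 FPKM, next 46.9) and ciRNA514 (a count of 96.4, next 151). The 3-month-old mouse 8 had the lowest type VI sum (5.38 FPKM, next 11). The 12-month-old mouse 17 was the highest for Col14a1 (10.7 FPKM, next 8.10), and the 24-month-old mouse 35 for ciRNA513 (a count of 120.5, next 54.3).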

How the results depend on the processing

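For 24 against 3 months the 1 collagen gene past the adjusted threshold became 0 with a pseudocount of 0.1, a mean of at least 1 FPKM, a robust prior, all class codes, the F test, aligned bases, fragments not divided by length (added after seeing the data) or limits of an unadjusted p under 0.05 with an absolute log2 fold change above 1, and 2 with all 15 mice in one fit. With 1 mouse left out it was 0 to 1. The 6 genes higher became 3 at a mean of at least 1 FPKM, which tests fewer genes, and 3 with median-ratio scaling, and 3 to 7 with 1 mouse left out (3 without 3-month-old mouse 6). The 3 lower became 1 with the F test and 2 to 4 with 1 mouse left out. For 12 against 3 months the 0 adjusted calls became 1 with all 15 mice and 1 with those limits, and 0 with any mouse left out. The 17 higher became 8 with median-ratio scaling and 0 with aligned bases, and 12 to 16 with 1 mouse left out, and the 1 lower became 2 and 2 under those settings and 1 to 2 with 1 mouse left out (2 without 3-month-old mice 7 or 9 or 12-month-old mouse 17). For 24 against 12 months the 2 higher became 0 with class code = alone, and the 11 lower became 7 with TPM, 6 with all 15 mice and 7 to 13 with 1 mouse left out (7 without 12-month-old mouse 21 or 24-month-old mice 34 or 35). For circRNAs the 1 call for 12 against 3 months became 3 with DESeq2 and 1 to 2 with 1 mouse left out (2 without 3-month-old mice 8 or 9 or 12-month-old mouse 17), the 1 for 24 against 12 months became 0 to 2 (0 without 24-month-old mouse 33, 2 without mouse 35), and the 6 for 24 against 3 months became 4 to 8. Shares over all features under these settings are not given here, so these counts have no baseline.

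The direction reversed for Col4a2 at 12 against 3 months (-0.12 as fragments not divided by length) and for Col1a2 at 24 against 12 months (0.13 with class code = alone). The cause was not tested for these changes. The difference in median log2 ratio of fibrillar to type IV sums ranged from 0.83 to 1.13 for 24 against 3 months, from 0.48 to 0.88 for 12 against 3 and from 0.02 to 0.58 for 24 against 12. The alternatives run for it were shorter gene lists, fragments not divided by length and each mouse left out. Scaling of a library cancels in this ratio, and other class codes and the covariates were not applied to it. Of 40 unadjusted calls on genes 4 held under every alternative other than those limits and with each mouse left out (Col4a3 in both comparisons with the oldest mice, and Col3a1 and Col6a2 for 24 against 12 months). No paired analysis was possible because the ages share no replicate numbers. Low collagens rest on few reads, and FPKM does not give their number.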

Other observations

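Spread between mice was widest in the youngest group. Over the 21 collagen genes at a mean of at least 1 FPKM, the median coefficient of variation (SD over mean) was 29.0% at 3 months, 20.5% at 12 months and 20.1% at 24 months. At 24 months mouse 31 had the highest value in 10 of these genes.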
